A study of Mus musculus with 6 samples.

Results

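The genes described here are the Wnt ligands, their Frizzled (Fzd) receptors and 2 families of secreted Wnt inhibitors, Sfrp and Dkk, in oncogene-expressing mouse fibroblasts with less Mettl3 after DNA damage. They were chosen by gene symbol alone, as every Wnt, Fzd, Sfrp and Dkk gene of the deposited FPKM table, which gave 37 genes of the 54532 in the table. FPKM is a read level scaled to the length of the gene and the size of the library. The 37 were 19 Wnt, 10 Fzd, 4 Sfrp and 4 Dkk genes. The knockdown libraries (shMettl3_dox, n = 3) came from mouse embryonic fibroblasts with a hairpin against Mettl3, and the control libraries (shLuc_dox, n = 3) from the same kind of cells with a control hairpin. Both groups expressed the adenoviral oncogene E1A and the activated Ras oncogene HRasV12. Both groups had also been treated with 0.2 ug/ml doxorubicin, a DNA-damaging drug, for 6 hours. Every value is therefore one under doxorubicin, and untreated cells were not analysed here. The study asked which genes are lower after knockdown of Mettl3 when DNA is damaged. The labels name a single hairpin against Mettl3, to which the authors' columns add the number 2.

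Wnt ligands are secreted, lipid-modified proteins that bind a Frizzled receptor together with a co-receptor of the Lrp5 and Lrp6 pair. In the best known branch this halts the breakdown of beta-catenin, which then enters the nucleus and switches on target genes with Tcf and Lef factors; other branches act on cell polarity and calcium. Sfrp proteins bind Wnt ligands outside the cell, and some Dkk proteins can block the Lrp co-receptors. Mettl3 is the methyltransferase that modifies adenosines in mRNA.

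Recovered depth was 17652952 to 25464040 reads in the shMettl3_dox libraries and 17001640 to 20132541 reads in the shLuc_dox libraries. Mettl3 itself, on chromosome 14 (52294841 to 52305128, minus strand), had 1.29, 1.53 and 1.65 FPKM in shMettl3_dox and 2.47, 3.14 and 2.59 FPKM in shLuc_dox, a ratio of means of 0.545. The third shMettl3_dox library stood somewhat apart: its reads differed from those of its group's other libraries by a chi-square of 12.9 and 14.7 per degree of freedom. The other shMettl3_dox pair gave 4 and the shLuc_dox pairs 3.52 to 4.84. Of 15 fibroblast markers 7 reached a mean of 1 FPKM. Vim, Fn1 and Twist1 were high, whereas Col1a1, Col1a2, Lum, Dcn and Postn stayed below 1 FPKM in every library and Thy1 was at 0 in all but 2. The fibroblast markers summed to 858 to 923 FPKM in shMettl3_dox and to 968 to 1013 FPKM in shLuc_dox, with Pdgfra and Vim lower by limma. Pdgfra lost that call without the second shMettl3_dox or first shLuc_dox library, and Vim without any library except the third shMettl3_dox one.

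Of the 37 genes, 9 reached a mean of 1 FPKM over the 6 libraries and were tested: the ligands Wnt7b and Wnt9a, and the receptors Fzd1, Fzd2, Fzd3, Fzd5, Fzd6, Fzd7 and Fzd8. Both ligands fell and, of the receptors, Fzd5 fell while Fzd2 and Fzd6 rose. Of the other 28 genes, 6 had a mean between 0.5 and 1 FPKM, 16 were lower but above 0, and 6 were at 0 in every library. No Sfrp and no Dkk gene reached 1 FPKM. The test was limma on log2(FPKM + 1) over the 12098 genes that averaged 1 FPKM or more, with a Benjamini-Hochberg adjusted p under 0.05. Among all these genes 13.5% passed as lower and 14.6% as higher, against 3 and 2 of the 9 members, and 9 genes are too few to set their shares apart from these. When the libraries were scaled on protein-coding genes instead, 1922 genes were lower and 1264 higher, against 1633 and 1763 with FPKM as deposited. The groups did not overlap for 5 of the 9 members and for 45.1% of all genes tested. The median change was 0.08 for the 9 members and 0.01 for all genes tested. In these bulk samples, fewer cells of a type and less RNA per cell cannot be told apart.

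**Figure D1:**
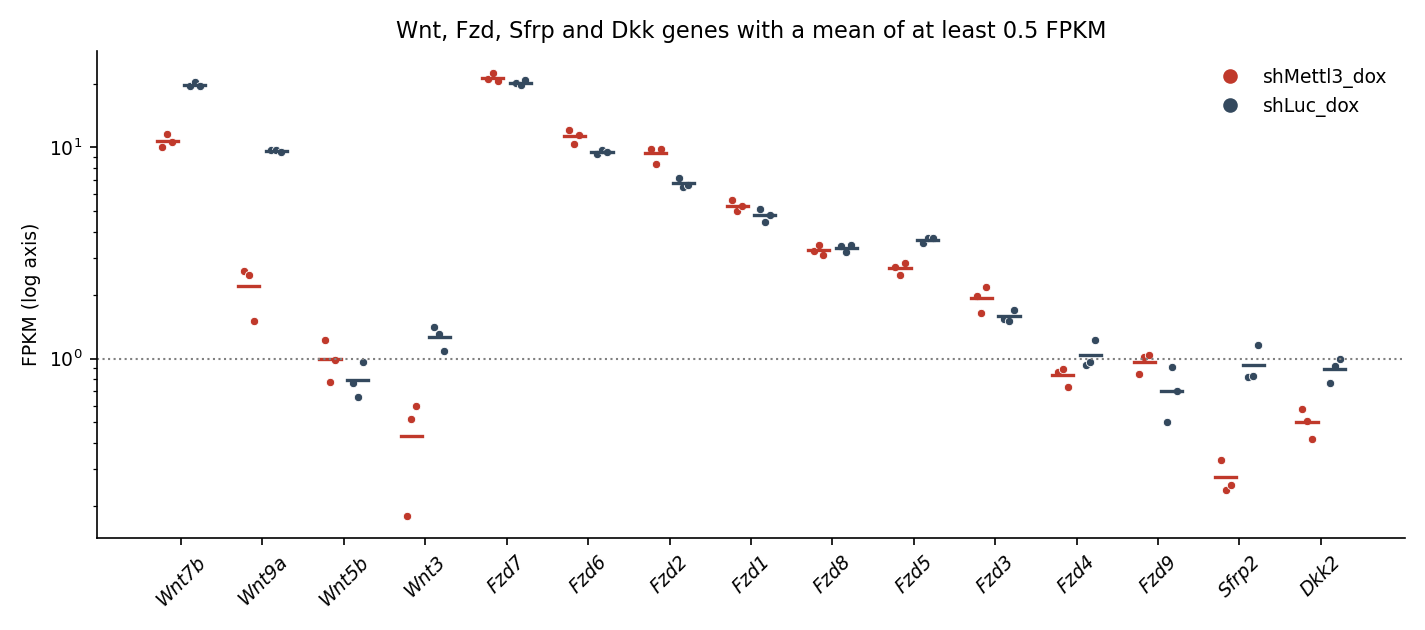
FPKM (log axis) of the 15 Wnt, Fzd, Sfrp and Dkk genes that averaged 0.5 FPKM or more; each point is a library, shMettl3_dox left and shLuc_dox right, bars are group means and the dotted line marks 1 FPKM. The shMettl3_dox points of Wnt7b, Wnt9a, Wnt3, Fzd5, Fzd4, Sfrp2 and Dkk2 all lie below their shLuc_dox points, while those of Fzd2 and Fzd6 all lie above.

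Among the ligands, Wnt7b was the most abundant. It acts in mouse lung and in the growth of brain blood vessels. Wnt7b (ENSMUSG00000022382, chromosome 15, 85535437 to 85582473, minus strand) had 10.0, 11.6 and 10.6 FPKM in shMettl3_dox and 19.4, 20.4 and 19.5 FPKM in shLuc_dox. The groups lay far apart, with little spread in either. The means were 10.7 ± 0.788 and 19.8 ± 0.553 FPKM (SD, n = 3 each), a ratio of 0.541. Wnt7b thus fell by 0.83 on the log2(FPKM + 1) scale (SE 0.0585, 95% interval -0.97 to -0.69, limma adjusted p = 0.000262). Its change ranked 209 of 12098 from the lowest. Behind these values stood 1236, 991 and 1044 reads in shMettl3_dox and 1733, 2013 and 1607 reads in shLuc_dox. An opposite-strand gene, AU022754, covers 324 of the 4898 exon bases of Wnt7b and had 0.375 to 1.11 FPKM. The sources used here do not give whether strand entered the counting, so reads of such overlapping pairs may be mixed.

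Wnt9a, a ligand known from joint and blood stem cell development, had the larger fall of the pair. Wnt9a (ENSMUSG00000000126, chromosome 11, 59306928 to 59333552, plus strand) had 2.60, 2.49 and 1.51 FPKM in shMettl3_dox and 9.74, 9.72 and 9.52 FPKM in shLuc_dox. The third shMettl3_dox library was the lowest, and the groups stayed well separated with and without it. The ratio of means was 0.227, and Wnt9a fell by 1.76 on the log2(FPKM + 1) scale (SE 0.136, 95% interval -2.08 to -1.43, limma adjusted p = 0.000359), at rank 18 of 12098 from the lowest. Since log2(FPKM + 1) understates the change of low genes, the count scale gave a larger value. With edgeR on recovered reads of genes that averaged 10 reads or more, the fall was -2.13 (adjusted p = 3.23e-08). The authors' deposited table also gives -2.13.

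Wnt3, a ligand that the early mouse embryo needs to form mesoderm, lay just under the level tested, with a mean of 0.433 ± 0.222 FPKM in shMettl3_dox and 1.27 ± 0.169 FPKM in shLuc_dox (SD, n = 3 each). Its values were 0.181, 0.520 and 0.597 FPKM in shMettl3_dox and 1.41, 1.31 and 1.08 FPKM in shLuc_dox, from 14, 28 and 37 reads and from 79, 81 and 56 reads. All shMettl3_dox libraries were below all shLuc_dox libraries, the first by the most. To reach such genes, edgeR was also run on recovered reads over the 14438 genes that averaged 10 reads or more, where 15.6% of genes passed as lower and 15% as higher. There 18 of the 37 genes were tested, 6 of which were lower and 3 higher. Wnt3 was among the lower ones, with a log2 change of -1.59 (edgeR adjusted p = 0.00273, and 0.000145 to 0.0202 with any library left out).

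The stretches before the transcription start of Wnt9a, Wnt3 and Fzd5 are shown. These genes fell, by limma or by edgeR, and have a promoter entry in RefSeq (GRCm38.p6). Sfrp2 and Dkk2, which were lower by edgeR, also have entries and are not printed. Of the 37 genes 25 had entries, with 28 promoters in all, and Wnt7b, Fzd2 and Fzd6 had none. Each is 250 bases, written 5′ to 3′ along the gene's strand, with every GGGCGG and its reverse complement CCGCCC, the GC box letters, in capitals. Wnt9a is at chr11:59306680-59306929 on the plus strand, Wnt3 at chr11:103773925-103774174 on the plus strand and Fzd5 at chr1:64737751-64738000 on the minus strand.
Wnt9a: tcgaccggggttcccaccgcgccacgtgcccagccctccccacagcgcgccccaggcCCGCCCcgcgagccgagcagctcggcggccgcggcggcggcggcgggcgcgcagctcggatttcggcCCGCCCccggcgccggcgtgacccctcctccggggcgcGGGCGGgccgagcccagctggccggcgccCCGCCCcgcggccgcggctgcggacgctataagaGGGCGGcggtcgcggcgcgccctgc
Wnt3: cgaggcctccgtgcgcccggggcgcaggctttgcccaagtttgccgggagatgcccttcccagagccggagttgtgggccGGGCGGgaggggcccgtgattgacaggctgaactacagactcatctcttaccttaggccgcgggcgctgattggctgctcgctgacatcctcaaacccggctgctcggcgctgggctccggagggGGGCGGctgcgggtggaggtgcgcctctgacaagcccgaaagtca
Fzd5: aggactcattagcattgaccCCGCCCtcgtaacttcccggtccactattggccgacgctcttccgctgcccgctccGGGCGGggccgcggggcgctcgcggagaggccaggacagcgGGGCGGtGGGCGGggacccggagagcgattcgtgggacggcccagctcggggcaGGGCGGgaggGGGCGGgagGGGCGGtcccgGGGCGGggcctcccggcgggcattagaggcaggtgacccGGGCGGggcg
The 3 printed promoters were GC-rich, with 84.4% G and C for Wnt9a, 68% for Wnt3 and 76.4% for Fzd5, against a median of 52.4% over all 32851 promoters. The share was 63.6% for Sfrp2 and 55.6% for Dkk2. Among receptors above 0 FPKM that were not called, it was 65.2% for Fzd7, 72.8% for Fzd4, 76.4% for Fzd9 and 51.2% for Fzd1. Across the 28 promoters of these families it ran from 48.4% for Wnt8b to 87.6% for Wnt3a, a gene at 0 in every library. GGGCGG occurred on either strand 5 times before Wnt9a, 2 times before Wnt3 and 9 times before Fzd5. The motif occurred 2 times before Dkk2 and was absent before Sfrp2. Of the uncalled receptors, Fzd7 had it 5 times, Fzd4 6 times, Fzd9 1 time and Fzd1 0 times. A link between the motif and the falls was not tested. GGGCGG was present in 20 of the 28 promoters of these families and in 32.7% of all promoters. The Tcf and Lef core CTTTGA was found in 4 of the 28 and in 13.8% of all, its variant CTTTGT in 5 and in 16.5%, and the AP-1 core TGANTCA in 1 and in 6.75%, both strands counted. None of those 3 motifs is in the letters printed above. These are letter matches and not measured sites.

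Several ligands lie side by side in the genome. Wnt9b and Wnt3 are 24.328 kb apart on chromosome 11, on opposite strands. Wnt9b had 0, 1 and 0 reads in shMettl3_dox and 5, 6 and 3 reads in shLuc_dox, low in all libraries. Wnt3a and Wnt9a are 16.175 kb apart on the same chromosome, and Wnt3a was at 0 in every library beside a Wnt9a level of several FPKM. On chromosome 15, Wnt10b and Wnt1 are 11.706 kb apart. Wnt10b had 9, 13 and 9 reads in shMettl3_dox and 15, 13 and 16 reads in shLuc_dox, and Wnt1 was at 0. On chromosome 1, Wnt10a lies 6.193 kb from Wnt6. Wnt6 had 15, 8 and 4 reads in shMettl3_dox and 11, 3 and 4 reads in shLuc_dox, with overlap. Wnt10a, known from tooth and skin development, had 3, 1 and 0 reads in shMettl3_dox and 8, 21 and 14 reads in shLuc_dox. With the limma test extended to all 26328 genes above 0, where 5.13% passed as lower, Wnt10a had a log2(FPKM + 1) change of -0.35 (adjusted p = 0.0413) and Wnt9b, which did not pass, one of -0.07 (adjusted p = 0.132). Wnt10a averaged 0.0238 FPKM in shMettl3_dox, where 3 reads make at most 0.0722 FPKM per library, and 0.313 FPKM in shLuc_dox. Its call thus rests on few reads, nearly all in shLuc_dox, the group where it is high.

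The remaining ligands were low. Wnt5b, which acts mostly outside the beta-catenin branch, had 1.23, 0.775 and 0.991 FPKM in shMettl3_dox and 0.766, 0.656 and 0.963 FPKM in shLuc_dox, with overlapping groups (edgeR log2 change 0.34, adjusted p = 0.402). Wnt11, a ligand of cell movement, had 0.575, 0.373 and 0.120 FPKM in shMettl3_dox and 0.465, 0.469 and 0.718 FPKM in shLuc_dox, also overlapping. Wnt1, Wnt3a and Wnt7a, all ligands of the beta-catenin branch, were at 0 in every library. A count of 0 allows up to 3 reads, which is at most 0.0562 to 0.0750 FPKM per library for these 3 genes, for counting error only. The other 9 ligands, among them Wnt5a, Wnt6 and Wnt10b, stayed at or below 0.280 FPKM in every library.

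Added up, the 19 ligands came to 15.3, 16.4 and 14.5 FPKM in shMettl3_dox and 33.0, 33.9 and 33.0 FPKM in shLuc_dox, a ratio of 0.463. Wnt7b and Wnt9a together made up 82.4%, 85.7% and 83.1% of that sum in shMettl3_dox and 88.5%, 88.9% and 88.0% in shLuc_dox. Their balance differed as well. Wnt9a held 10.4% to 16.98% of the ligand sum in shMettl3_dox and 28.7% to 29.5% in shLuc_dox, while Wnt7b held 65.4% to 72.8% in shMettl3_dox and 58.9% to 60.3% in shLuc_dox.

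**Figure D2:**
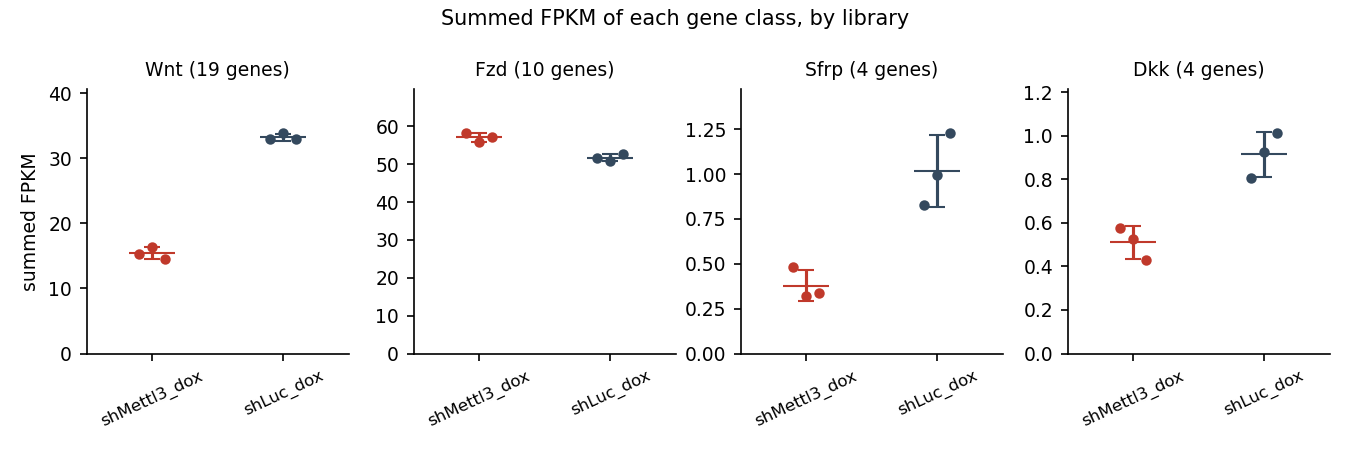
Summed FPKM of the 19 Wnt, 10 Fzd, 4 Sfrp and 4 Dkk genes; points are libraries, wide bars group means and whiskers the SD (n = 3), with shMettl3_dox left of shLuc_dox and an axis from 0 in each panel. The Wnt sums are 14.5 to 16.4 FPKM in shMettl3_dox and 33.0 to 33.9 FPKM in shLuc_dox, while the Fzd sums are 55.9 to 58.2 FPKM and 50.8 to 52.7 FPKM.

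The Frizzled receptors did not follow the ligands as a class. Their sum was 58.2, 55.9 and 57.3 FPKM in shMettl3_dox and 51.7, 50.8 and 52.7 FPKM in shLuc_dox, a ratio of 1.10, which became 1.07 when libraries were scaled on protein-coding genes. Fzd7, a receptor widely used in stem and progenitor cells, was the most abundant and carried 36.0% to 40.3% of the receptor sum in shMettl3_dox and 38.9% to 39.6% in shLuc_dox. Fzd7 (ENSMUSG00000041075, chromosome 1, 59482424 to 59486955, plus strand) had 20.99, 22.6 and 20.7 FPKM in shMettl3_dox and 20.2, 19.7 and 20.9 FPKM in shLuc_dox. The groups overlapped, and the change of 0.08 had a 95% interval of -0.04 to 0.19 (limma adjusted p = 0.282).

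Fzd2 had the largest rise among the 9. It binds ligands of both branches, Wnt5a among them. Fzd2 (ENSMUSG00000050288, chromosome 11, 102604396 to 102608058, plus strand) had 9.83, 8.40 and 9.87 FPKM in shMettl3_dox and 7.17, 6.53 and 6.65 FPKM in shLuc_dox. All shMettl3_dox values were above all shLuc_dox values, with a ratio of means of 1.38. The change was 0.41 on the log2(FPKM + 1) scale (SE 0.0725, 95% interval 0.24 to 0.58, limma adjusted p = 0.00718).

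Fzd6, a receptor that orients hairs in mouse skin through planar cell polarity, rose by less. Fzd6 (ENSMUSG00000022297, chromosome 15, 39006034 to 39038188, plus strand) had 12.1, 10.4 and 11.5 FPKM in shMettl3_dox and 9.35, 9.78 and 9.55 FPKM in shLuc_dox, without overlap. The change was 0.22 (SE 0.0606, 95% interval 0.08 to 0.37, limma adjusted p = 0.0345). This call depended on single libraries. The limma adjusted p was 0.102 without the first shMettl3_dox library, 0.0652 without the third, 0.104, 0.0773 and 0.0877 without shLuc_dox replicates 1, 2 and 3, and 0.0745 with protein-coding scaling. An opposite-strand gene, Gm26704, covers 152 of the 4818 exon bases of Fzd6 and had 0.0137 to 0.322 FPKM.

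Fzd5, which in mice is needed for the yolk sac vessels and the eye, was the receptor that fell. Fzd5 (ENSMUSG00000045005, chromosome 1, 64730558 to 64737751, minus strand) had 2.71, 2.50 and 2.84 FPKM in shMettl3_dox and 3.54, 3.72 and 3.74 FPKM in shLuc_dox. The groups did not overlap, with a ratio of means of 0.732. Fzd5 fell by 0.34 on the log2(FPKM + 1) scale (SE 0.0695, 95% interval -0.51 to -0.18, limma adjusted p = 0.0122). Its promoter, printed above, holds 9 GGGCGG letter matches, and a link to this fall was not tested. The opposite-strand gene Gm38058 covers 1233 of the 6915 exon bases of Fzd5 and had at most 0.0408 FPKM.

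**Figure D3:**
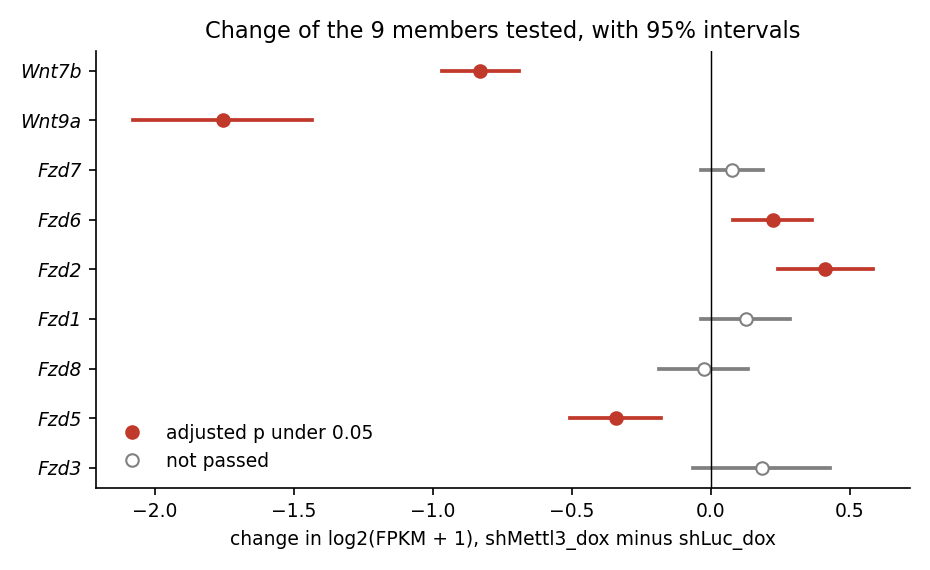
Change in log2(FPKM + 1), shMettl3_dox minus shLuc_dox, for the 9 genes that averaged 1 FPKM or more; dots are limma estimates, lines 95% intervals, and filled dots have an adjusted p under 0.05. Wnt9a lies at -1.76 and Wnt7b at -0.83, while the 7 receptors lie between -0.34 and 0.41.

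The other receptors did not pass the limma test. Fzd1, a receptor of the beta-catenin branch, averaged 5.30 ± 0.323 FPKM in shMettl3_dox and 4.78 ± 0.321 FPKM in shLuc_dox (SD, n = 3 each), with a change of 0.12 and a 95% interval of -0.04 to 0.29 (limma adjusted p = 0.221). Fzd8, which binds Wnt3a among others, averaged 3.28 ± 0.179 FPKM in shMettl3_dox and 3.35 ± 0.126 FPKM in shLuc_dox, with a change of -0.03 and a 95% interval of -0.18 to 0.13 (limma adjusted p = 0.813). Fzd3 guides growing axons. It had 1.99, 1.65 and 2.19 FPKM in shMettl3_dox and 1.55, 1.51 and 1.70 FPKM in shLuc_dox, with overlap in a single pair of libraries. Its change was 0.18 (limma adjusted p = 0.240), while edgeR on genes with at least 10 reads gave 0.30 (adjusted p = 0.0471). Without the second shMettl3_dox library the edgeR adjusted p of Fzd3 was 0.00861, and without any other library it was 0.0548 to 0.140.

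Fzd4 and Fzd9 lay just under 1 FPKM. Fzd4, the receptor for Norrin in retinal vessels, had 0.868, 0.893 and 0.738 FPKM in shMettl3_dox and 0.932, 0.962 and 1.23 FPKM in shLuc_dox. The groups lay close without overlap (edgeR log2 change -0.32, adjusted p = 0.181). Fzd9, a receptor known from bone and brain, had 0.848, 1.02 and 1.04 FPKM in shMettl3_dox and 0.503, 0.910 and 0.700 FPKM in shLuc_dox, with overlap (edgeR log2 change 0.45, adjusted p = 0.322). Fzd10 was at 0 in every library.

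All 8 Sfrp and Dkk genes were scarce in both groups, and Sfrp2 and Dkk2 were lower in every shMettl3_dox library. The 4 Sfrp genes summed to 0.480, 0.321 and 0.335 FPKM in shMettl3_dox and to 0.829, 0.994 and 1.23 FPKM in shLuc_dox. Most of this was Sfrp2 (ENSMUSG00000027996, chromosome 3, 83766321 to 83774316, plus strand), which binds Wnt ligands outside the cell. Sfrp2 had 0.332, 0.239 and 0.253 FPKM in shMettl3_dox and 0.817, 0.831 and 1.16 FPKM in shLuc_dox, from 18, 9 and 11 reads and from 32, 36 and 42 reads. The groups were clearly apart despite the few reads, with a ratio of means of 0.293. Sfrp2 fell by 1.74 on edgeR's log2 scale (adjusted p = 0.00247, and 0.00430 to 0.0180 with any library left out), and the authors' deposited table gives -1.75. The opposite-strand gene Gm26771 covers 347 of its 2153 exon bases and had at most 0.254 FPKM.

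Dkk2, which binds the Lrp5 and Lrp6 co-receptors, made up nearly all of the Dkk sum. It had 0.578, 0.509 and 0.415 FPKM in shMettl3_dox and 0.771, 0.926 and 0.995 FPKM in shLuc_dox, from 54, 33 and 31 reads and from 52, 69 and 62 reads. The groups did not overlap in FPKM, with a ratio of means of 0.558. In edgeR the log2 change was -0.83 (adjusted p = 0.0259). That call held without the first shLuc_dox library (edgeR adjusted p = 0.0387) or the first shMettl3_dox library (0.0350), and without any other library it was 0.0521 to 0.0921. Dkk1 and Dkk4, inhibitors of the same kind, were at 0 in every library. Sfrp4 had 8, 6 and 4 reads in shMettl3_dox and 0, 3 and 1 reads in shLuc_dox, higher counts in the shMettl3_dox libraries. It did not pass in limma on all genes above 0 (0.07, adjusted p = 0.197). Sfrp1, Sfrp5 and Dkk3 stayed at or below 0.105 FPKM in every library.

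The authors' deposited table of 1960 lower genes holds 6 of the 37 genes, namely Wnt9a, Wnt7b, Wnt3, Wnt10a, Fzd5 and Sfrp2. Its log2 fold changes are -2.13 for Wnt9a, -0.88 for Wnt7b, -1.57 for Wnt3, -3.64 for Wnt10a, -0.44 for Fzd5 and -1.75 for Sfrp2. That list gives lower genes alone, so Fzd2 and Fzd6 could not appear in it. Its Wnt10a value rests on 3, 1 and 0 reads in shMettl3_dox.

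For each of the 5 genes that passed, the longest protein-coding transcript was searched for GGACT. These are the core letters that the Mettl3 complex prefers to methylate. The other genes tested were searched in the same way, and which transcripts these cells use was not examined. Methylation was not measured here, so a match is not a modified site. Of 10653 tested genes with a coding transcript 92.5% held GGACT, with a median of 1.04 per kb and quartiles of 0.634 and 1.51. Wnt9a had 5 in 3320 bases, or 1.51 per kb, and Wnt7b had 3 in 3400 bases, or 0.882 per kb. Fzd5 had 8 in 6915 bases, or 1.16 per kb. Of the receptors that rose, Fzd2 had 2 in 3663 bases, or 0.546 per kb, and Fzd6 had 3 in 4325 bases, or 0.694 per kb. Of those that did not pass, Fzd7 had 0.221 per kb, Fzd3 0.550, Fzd1 0.715 and Fzd8 1.67. The 3 genes that fell lay between the quartiles of all genes, as did Fzd6 and Fzd1, while Fzd2, Fzd3 and Fzd7 lay below them and Fzd8 above.

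The match nearest to the stop codon of each of the 5 is printed in 25 bases along the transcript's strand, with GGACT in capitals. It lies 36 bases after the stop codon in Wnt9a (chr11:59331399-59331423, plus strand), 418 after it in Wnt7b (chr15:85536959-85536983, minus strand) and 389 after it in Fzd5 (chr1:64734442-64734466, minus strand). In Fzd2 it lies 46 bases after the stop codon (chr11:102606478-102606502, plus strand) and in Fzd6 289 bases before it (chr15:39035095-39035119, plus strand). The first 4 are in the 3′ UTR and that of Fzd6 is in the coding sequence; distances count from the stop codon's first base, and the build is GRCm38.
Wnt9a: caagcggtgtGGACTttgcacacag
Wnt7b: catcagatgaGGACTcagtactaac
Fzd5: aggtttttttGGACTgtgtggtcta
Fzd2: tcccaggtccGGACTgcaccgtgcc
Fzd6: ccaaagatcgGGACTgtggggaatc
The windows thus show 4 matches after the stop codon and 1 before it.

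The rest of the pathway was followed in 8 lists that together hold 124 matched genes, of which 87 were measured. By limma, 19 were lower, 12 higher and 56 did not pass, with a median change of -0.05. Over all genes tested 13.5% were lower and 14.6% higher, shares against which the counts of each list are to be read. Leaving out a library gave 13 to 23 lower and 4 to 9 higher. These genes show which parts of the machinery stood beside the ligands and receptors.

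Among 7 measured co-receptors and other Wnt receptors, 2 were lower and 2 higher. Ptk7, a polarity co-receptor, averaged 34.7 ± 1.64 FPKM in shMettl3_dox and 42.4 ± 2.01 FPKM in shLuc_dox (SD, n = 3 each; log2 change -0.28, limma adjusted p = 0.00923). Adgra2 rose, with 24.2 ± 0.381 FPKM in shMettl3_dox and 20.7 ± 0.625 FPKM in shLuc_dox (0.21, limma adjusted p = 0.00968). Adgra2 forms, together with Reck, the mouse receptor complex that is specific for Wnt7a and Wnt7b, and Reck did not pass (-0.05, limma adjusted p = 0.798). Lrp5 fell (-0.19, limma adjusted p = 0.0146) and Ryk, a receptor with an inactive kinase domain, rose (0.27, limma adjusted p = 0.0210). Both calls were lost without the first shMettl3_dox or the first or the third shLuc_dox library, at limma adjusted p values of 0.0508 to 0.0562 for Lrp5 and up to 0.0667 for Ryk. Lrp6 had a change of 0.06 (limma adjusted p = 0.472).

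Genes of ligand export did not fall by this test. Of 6 measured genes for Wnt acylation and secretion 2 were higher and none lower. Wls, the carrier that takes Wnt ligands to the cell surface, averaged 13.8 ± 0.196 FPKM in shMettl3_dox and 13.3 ± 0.156 FPKM in shLuc_dox (0.05, limma adjusted p = 0.387). Porcn, which attaches the lipid, changed by 0.22 with wide spread (limma adjusted p = 0.407). The retromer subunits Vps26a (0.23, limma adjusted p = 0.0133) and Vps29 (0.18, limma adjusted p = 0.0498) rose. Vps26a lost its call without the second shLuc_dox library (0.0554), and Vps29 lost its under 12 of 16 alternatives, leaving out each of the 6 libraries among them, with limma adjusted p values up to 0.135.

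Of 16 further inhibitor genes, whose symbols are not of the Sfrp or Dkk form, 4 were measured, 1 lower and 1 higher. Frzb, which is also known as Sfrp3 and binds Wnt ligands like its relatives, averaged 1.48 ± 0.404 FPKM in shMettl3_dox and 1.89 ± 0.493 FPKM in shLuc_dox and did not pass (-0.22, limma adjusted p = 0.383). It was thus more abundant than any of the 4 Sfrp genes. Gpc3, a cell-surface proteoglycan, averaged 20.4 ± 1.32 FPKM in shMettl3_dox and 29.3 ± 0.767 FPKM in shLuc_dox (-0.51, limma adjusted p = 0.00116). Apcdd1, a membrane inhibitor of Wnt signalling, averaged 12.4 ± 0.474 FPKM in shMettl3_dox and 9.55 ± 0.666 FPKM in shLuc_dox (0.34, limma adjusted p = 0.00721). Of the genes for R-spondins, their Lgr receptors and the ubiquitin ligases that remove Frizzleds, only Lgr4 (-0.10, limma adjusted p = 0.430) and Znrf3 (-0.03, limma adjusted p = 0.777) were measured, and neither passed.

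Inside the cell, all 23 genes of the beta-catenin destruction complex and Dishevelled group were measured, with 8 lower, 2 higher and a median change of -0.14, against 13.5% lower and 14.6% higher over all genes tested. The lower genes numbered 6 with no filter on low values or without any library other than the third shMettl3_dox one, and 10 without that one. Tnks2, a tankyrase that marks Axin for breakdown, averaged 39.9 ± 2.83 FPKM in shMettl3_dox and 57.0 ± 1.54 FPKM in shLuc_dox (-0.50, limma adjusted p = 0.00142). Cby1, which binds beta-catenin and restrains it, fell (-0.59, limma adjusted p = 0.00203), as did the phosphatase subunit Ppp2r5a (-0.31, limma adjusted p = 0.00213). Csnk1e, a kinase that acts on Dishevelled, rose (0.28, limma adjusted p = 0.00308). The members that fell thus have opposite known roles in the branch. Ctnnb1, which encodes beta-catenin itself, averaged 110 ± 1.19 FPKM in shMettl3_dox and 115 ± 2.98 FPKM in shLuc_dox (-0.06, limma adjusted p = 0.278).

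Of 14 measured genes for beta-catenin and its nuclear partners, 3 were lower and 2 higher, against 13.5% lower and 14.6% higher over all genes tested. The DNA-binding partner Tcf7 averaged 11.9 ± 0.567 FPKM in shMettl3_dox and 17.8 ± 1.12 FPKM in shLuc_dox (-0.55, limma adjusted p = 0.00122). Pygo2, Tle2 and Tle4 passed with adjusted p values that did not survive leaving out some libraries. For Pygo2 (-0.21, limma adjusted p = 0.0167) these were the first and second shLuc_dox libraries, at 0.0612 to 0.0629. For Tle2 (0.47, limma adjusted p = 0.0198) and Tle4 (-0.30, limma adjusted p = 0.0366), which encode co-repressors, 6 alternatives each ended the call, at 0.0504 to 0.0741 and at 0.0579 to 0.117. Among these were leaving out any library but the third shMettl3_dox one for Tle2, and any but the second shMettl3_dox one for Tle4. Tle2 averaged 1.42 ± 0.0875 FPKM in shMettl3_dox and 0.746 ± 0.00889 FPKM in shLuc_dox, so it reached the level of 1 FPKM only through the group where it is high, and its call is no support for the list's count.

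Genes known as targets of beta-catenin in other systems were split. Of 15 measured, 3 were lower and 3 higher, with a median change of -0.05, against 13.5% lower and 14.6% higher over all genes tested. Ptgs2, the inducible prostaglandin synthase, averaged 5.28 ± 0.431 FPKM in shMettl3_dox and 17.3 ± 1.82 FPKM in shLuc_dox (-1.54, limma adjusted p = 0.000127). Fgf18, a fibroblast growth factor, averaged 0.159 ± 0.0653 FPKM in shMettl3_dox and 1.92 ± 0.586 FPKM in shLuc_dox (-1.32, limma adjusted p = 0.00241). It reached the level of 1 FPKM only through shLuc_dox, where it is high, and had 6, 4 and 2 reads in shMettl3_dox, so its call is no support for the list's count. The higher genes were Apcdd1, given above, Myc, a growth-promoting transcription factor, and Snai2, a repressor of epithelial genes. Myc averaged 12.9 ± 1.90 FPKM in shMettl3_dox and 9.61 ± 0.426 FPKM in shLuc_dox (0.38, limma adjusted p = 0.0253), and lost its call without any 1 shLuc_dox library, at up to 0.0845. Snai2 averaged 4.33 ± 0.323 FPKM in shMettl3_dox and 2.89 ± 0.736 FPKM in shLuc_dox (0.47, limma adjusted p = 0.0400), and lost its call without any library other than the third shLuc_dox one, at up to 0.120. Axin2, the target most often used as a readout of the branch, had a mean just under 1 FPKM, with 0.944, 0.696 and 0.505 FPKM in shMettl3_dox and 1.06, 1.13 and 1.13 FPKM in shLuc_dox. All its shMettl3_dox values were the lower ones. Its call depended on the tool, with a log2 change of -0.62 in edgeR (adjusted p = 0.0396), -0.62 in DESeq2 (adjusted p = 0.0709) and -0.30 in limma on all genes above 0 (adjusted p = 0.219).

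In the planar cell polarity and calcium branch 21 genes were measured, with 3 lower, 1 higher and a median change of 0.01, against 13.5% lower and 14.6% higher over all genes tested. Celsr2, a polarity cadherin, averaged 1.84 ± 0.0975 FPKM in shMettl3_dox and 3.64 ± 0.315 FPKM in shLuc_dox (-0.71, limma adjusted p = 0.00156). Mapk9, a Jun kinase, also fell (-0.29, limma adjusted p = 0.00581). Scrib, a scaffold of cell polarity, fell (-0.27, limma adjusted p = 0.0136) and Vangl1, a core polarity membrane protein, rose (0.26, limma adjusted p = 0.0190). Scrib lost its call without the first or second shLuc_dox library, at 0.0529 to 0.0537. Vangl1 lost its call without the first or second shMettl3_dox or the first shLuc_dox library, at 0.0538 to 0.0568.

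**Figure D4:**
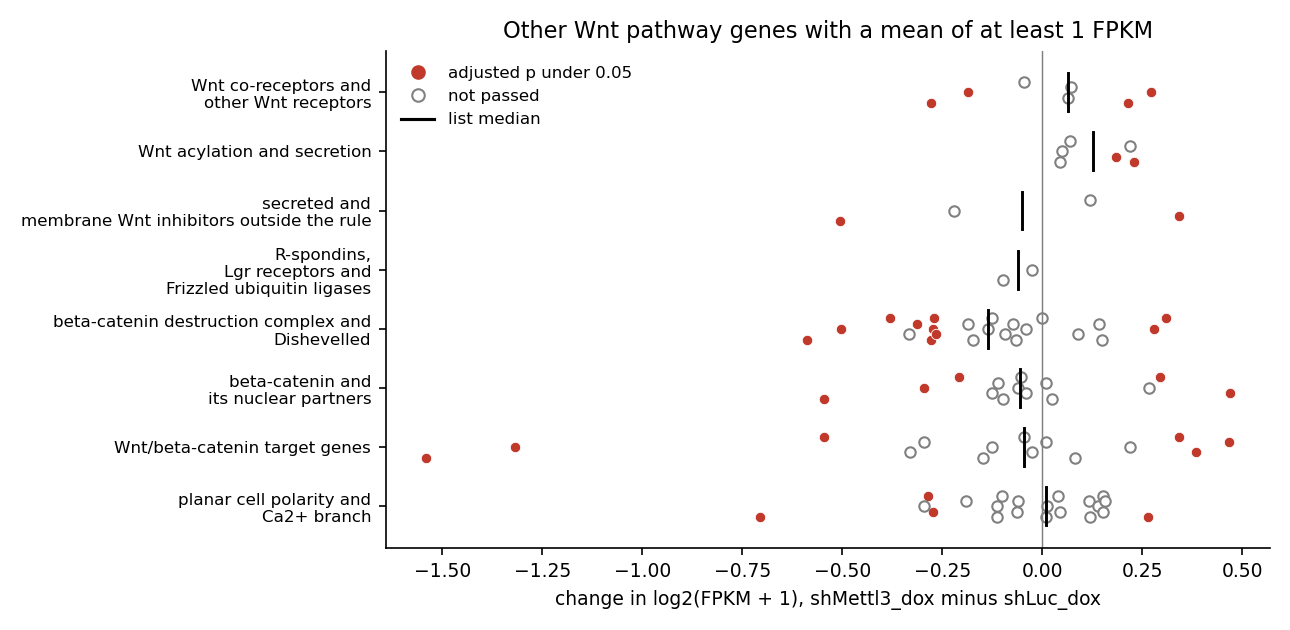
Change in log2(FPKM + 1), shMettl3_dox minus shLuc_dox, of the 87 measured genes of 8 Wnt pathway lists; each dot is a gene, filled where the limma adjusted p was under 0.05, and the black bar is the list's median. Medians lie between -0.14 and 0.13, and the dots farthest to the left are the targets Ptgs2 at -1.54 and Fgf18 at -1.32, which is in the plot only through its shLuc_dox level.

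Of 34 markers of other cell types, Krt18, Epcam and Cd68 were lower in shMettl3_dox by limma. Of 10 epithelial markers 2 were measured and both fell, Krt18 with 29.1 ± 3.93 FPKM in shMettl3_dox and 46.2 ± 1.66 FPKM in shLuc_dox, and Epcam with 2.66 ± 0.449 FPKM in shMettl3_dox and 4.14 ± 0.416 FPKM in shLuc_dox. Epcam lost its call without the first or second shLuc_dox library, at limma adjusted p values up to 0.0635. The 10 summed to 29.5 to 35.9 FPKM in shMettl3_dox and 49.3 to 52.8 FPKM in shLuc_dox, while Krt14 was at 0 in every library and Cdh1, Krt5 and Krt8 stayed near 0. Of 8 leukocyte markers Cd68 alone was measured and fell. The sum was 9.47 to 11.6 FPKM in shMettl3_dox and 15.5 to 18.1 FPKM in shLuc_dox, with Cd3e at 0 in every library and Ptprc at most 0.00813 FPKM. The 8 endothelial markers summed to 1.76 to 1.83 FPKM in shMettl3_dox and 1.15 to 1.48 FPKM in shLuc_dox, nearly all of it Eng, with Emcn at 0. The 8 neural markers summed to 44.6 to 53.8 FPKM in shMettl3_dox and 52.4 to 56.5 FPKM in shLuc_dox, nearly all of it Nes, with Sox2 at 0. No endothelial and no neural marker passed in the main limma fit. Eng, the only endothelial marker measured, had a change of 0.36 there. It was called higher with quantile normalization and with edgeR and DESeq2 on recovered reads. The part of these markers in the ligand and receptor values was not tested.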

How the data were processed

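Total RNA was sequenced in 6 libraries, 3 per group. Per the submitters' processing notes, the build was mm10 and the tools were STAR, fastp, DESeq2 and featureCounts 1.5.3, with no role stated. The authors deposited FPKM for every gene, scaled to gene length and library size. A second table, of genes the authors listed as lower, holds a signal per library (a normalized read count, reads divided by a size factor), log2 fold changes and p-values as deposited by the authors. FPKM multiplied by the union exon length in GENCODE M21 gave whole reads within 0.001 for 96.7% of genes above 0. For the other 872, Fzd8 and Wnt8b among them, another length did so and reads are known up to a common multiple.

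The main test was two-sided limma 3.58.1 (R 4.3.3) on log2(FPKM + 1), fitted with an intensity trend on all 12098 genes that averaged 1 FPKM or more, with Benjamini-Hochberg adjustment. The alternatives were edgeR 4.0.16 and DESeq2 1.42.0 on recovered reads, other scalings, filters and pseudocounts, the replicate number as a block and leaving out each library. Tests on genes that averaged 10 reads or more, and DESeq2 on all genes above 0, were added after seeing the data. The methods were tested on simulated data. There limma recovered 8% of 1.2-fold, 68% of 1.5-fold and 90% of 2-fold changes, and edgeR 40%, 88% and 98%. Genes that did not pass may therefore have changed by small amounts. Every member with a mean above 0.5 FPKM is named. Pathway genes named are up to 4 per list with the smallest p among those that passed. Other genes, among them members below 0.5 FPKM such as Wnt11 and Wnt10a, were added after their values were seen. Members were taken by symbol alone, but the symbol rule and the lists were set with earlier results of these data known. Coordinates are 1-based (GENCODE M21, GRCm38); promoters and their motifs are from RefSeq. Python 3.11.15, numpy 2.4.6, pandas 2.3.3 and matplotlib 3.10.9 were used.

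Nothing in the labels ties replicates to separate cultures; p-values therefore reflect only the spread between these libraries, which may be technical. Replicates differed by more than counting noise, and none were merged.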

Additional observations from a re-analysis of the deposited data

How the results depend on the processing

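Wnt7b (-0.90 to -0.79), Wnt9a (-2.15 to -1.59), Fzd5 (-0.46 to -0.30) and Fzd2 (0.37 to 0.48) kept their direction and call under all 16 alternatives. Fzd6 kept its direction and lost its call under 8 of 16, and Fzd3 gained one with edgeR on genes of at least 10 reads. Fzd8, not called, changed sign with quantile normalization (0.0095) and without the third shMettl3_dox library (0.0020; range with any library left out -0.058 to 0.0020). The lower members numbered 3, but 6 with no filter on low values, 5 with a mean of 0.5 FPKM, 6 with edgeR on genes of at least 10 reads and 5 with DESeq2 on all genes above 0, where more members are tested. Wnt3 and Sfrp2 averaged 0.433 and 0.275 FPKM in shMettl3_dox and reached 0.5 FPKM only through shLuc_dox, where they are high. Wnt10a had 3, 1 and 0 reads in shMettl3_dox. The larger limma counts with these looser filters are therefore no support for more falls. The higher members numbered 2, but 1 with protein-coding scaling, with no filter and with the replicate block; leaving out a library gave 1 to 2 higher and 3 lower. Leaving out a library gave 1060 to 1646 lower and 1013 to 1854 higher genes over all genes tested. The Fzd sum ratio of 1.10 became 1.07 with protein-coding scaling, and the Wnt, Sfrp and Dkk ratios moved by less than the replicate spread. The causes of these shifts, beyond the number of genes or libraries in a fit, were not tested.

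Replicate numbers did not pair the libraries: same-numbered deviations correlated at 0.034, -0.0068 and 0.0631, and not every library correlated best with its own number. With the replicate block 1525 genes were lower and 1676 higher, against 1633 and 1763 without it, and Fzd6 had a limma adjusted p of 0.0607. Depth limits genes such as Sfrp2, with 9 to 42 reads, more than Fzd4, with 100 to 147.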
